A study of Mus musculus with 40 samples.

Results

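Clec4f, Vsig4, Timd4, Marco, Cd5l, Folr2, Spic and Id3 are 8 genes used to recognise the resident macrophage of the liver, the Kupffer cell. They were named by symbol, by a rule that uses no measured value, from 55359 gene identifiers counted in mouse liver, and all 8 were among the 15373 genes that passed the filter on low counts. Male C57BL/6 mice from Charles River, 30 days old at the first gavage and 58 days old at the end, received 2,3,7,8-tetrachlorodibenzo-p-dioxin, abbreviated TCDD, by gavage every 4 days for 28 days. The 7 doses went from 0.03, 0.1 and 0.3 μg/kg through 1 and 3 μg/kg to 10 and 30 μg/kg, the vehicle group received sesame oil alone, and each of the 8 groups held 5 mice. No genetic change is given for any group, and the RNA came from pieces of whole liver in which no cell type was sorted. Each of the 40 libraries held between 15496128 and 20967093 read counts in genes. Levels are given as CPM, the counts of a gene scaled to a common library size, with their SD between mice, and a gene is said to have risen or fallen where the adjusted p was under 0.05 and the change was at least 1.5-fold.

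Kupffer cells line the liver sinusoids, where they clear bacteria, aged red cells and cell debris from portal blood. They are seeded before birth and renew themselves locally, and after loss they can be replaced by monocytes that take up the same identity step by step. Clec4f is known to appear early in such newly formed Kupffer cells and Timd4 late. Marco, by contrast, is also made by other macrophages. TCDD acts through the AhR, the aryl hydrocarbon receptor, which once bound by ligand enters the nucleus and binds a short DNA element with the core GCGTG. In whole liver RNA, fewer cells of a type and less RNA per cell cannot be told apart, and the same holds for more cells and more RNA per cell.

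The 8 genes lie on 8 chromosomes. In the GENCODE M21 annotation of GRCm38, Clec4f spans chr6:83644542-83656187 on the minus strand, Vsig4 chrX:96247203-96293438 minus, Timd4 chr11:46810800-46844332 plus and Marco chr1:120474538-120505024 minus. Cd5l spans chr3:87357881-87371073 plus, Folr2 chr7:101839988-101857194 minus, Spic chr10:88674772-88685015 minus and Id3 chr4:136143497-136145755 plus. The 250 bases before the start of Marco, Cd5l and Vsig4, the members that rose between 10 and 30 μg/kg, are shown beside those of Timd4, which was not called over that step. They were taken from RefSeq on GRCm38.p6, at chr1:120505025-120505274 minus, chr3:87357631-87357880 plus, chrX:96293439-96293688 minus and chr11:46810549-46810798 plus. Each is written 5′ to 3′ on the strand of its gene, with matches on either strand to GCGTG, the AhR core, or to GAGGAA, a core bound by PU.1 and the related factor encoded by Spic, in capitals.
Marco: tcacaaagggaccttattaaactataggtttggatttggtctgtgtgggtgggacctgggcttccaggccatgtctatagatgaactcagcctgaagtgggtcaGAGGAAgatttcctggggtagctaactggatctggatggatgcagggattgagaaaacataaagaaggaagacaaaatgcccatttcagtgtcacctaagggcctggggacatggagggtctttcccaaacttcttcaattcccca
Cd5l: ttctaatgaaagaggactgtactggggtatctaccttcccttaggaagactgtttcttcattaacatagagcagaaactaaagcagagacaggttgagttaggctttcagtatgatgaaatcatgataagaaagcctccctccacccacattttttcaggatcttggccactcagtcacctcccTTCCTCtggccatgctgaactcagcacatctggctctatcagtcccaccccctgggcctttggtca
Vsig4: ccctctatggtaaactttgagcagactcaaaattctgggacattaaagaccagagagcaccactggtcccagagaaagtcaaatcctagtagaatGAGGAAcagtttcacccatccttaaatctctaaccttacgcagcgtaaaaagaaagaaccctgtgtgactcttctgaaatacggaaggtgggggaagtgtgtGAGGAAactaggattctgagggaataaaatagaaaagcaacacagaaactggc
Timd4: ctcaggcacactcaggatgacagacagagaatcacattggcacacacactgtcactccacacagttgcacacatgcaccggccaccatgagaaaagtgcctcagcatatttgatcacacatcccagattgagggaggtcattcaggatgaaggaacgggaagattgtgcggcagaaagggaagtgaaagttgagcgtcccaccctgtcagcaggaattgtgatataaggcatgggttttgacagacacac
GAGGAA or its complement occurred 1 time each before Marco and Cd5l and 2 times before Vsig4, and neither motif occurred before Timd4. Of the other members, Id3 had GAGGAA 2 times and GCGTG 1 time, and Clec4f, Folr2 and Spic had neither. Over 32851 RefSeq windows of the same length, 23.3% held GAGGAA and 28.2% held GCGTG. A match describes letters in this window and is not evidence of binding.

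In vehicle livers Id3 was the most abundant of the 8 transcripts per length and Spic the least. RPKM, which is CPM divided by the exon length in kilobases, averaged 44.4 ± 24.7 for Id3 (SD, n = 5 here and below), 27.0 ± 3.98 for Clec4f, 22.0 ± 3.56 for Cd5l and 9.18 ± 2.59 for Vsig4. Timd4 followed at 1.96 ± 0.61 RPKM, Marco at 1.29 ± 0.67 and Spic at 0.18 ± 0.06, while Folr2 was recorded at 0.32 ± 0.22 for a reason given with that gene. Id3 and Clec4f, Clec4f and Cd5l, Timd4 and Marco, and Folr2 and Spic overlapped between mice, whereas the ranges of Cd5l and Vsig4 and of Vsig4 and Timd4 did not. The order had changed at 30 μg/kg. Cd5l was the most abundant at 155 ± 62.6 RPKM, and Id3, Marco, Clec4f and Vsig4 followed with overlapping ranges at 53.5 ± 16.6, 52.6 ± 23.5, 50.4 ± 17.9 and 47.6 ± 22.2 RPKM. The lowest Cd5l mouse lay within the range of each of these 4 genes. Timd4 stood at 3.69 ± 2.83 RPKM and Spic at 1.40 ± 0.70. Marco was thus below Clec4f, Cd5l and Vsig4 in every vehicle mouse, and overlapped with Clec4f and Vsig4 at the highest dose.

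**Figure D1:**
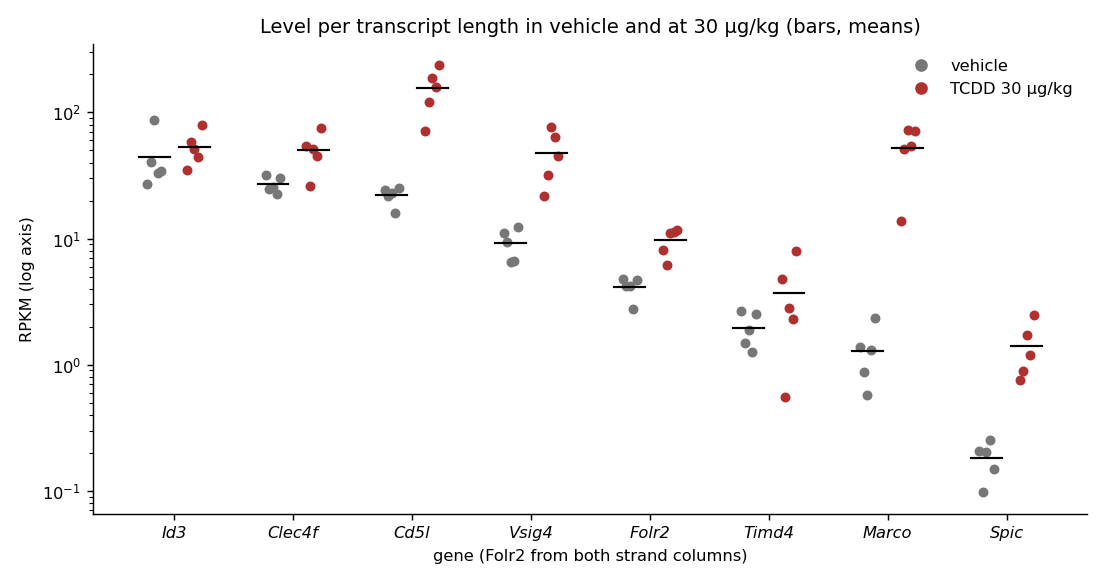
RPKM of each member in vehicle livers and at 30 μg/kg TCDD on a log axis, with points for single mice and bars for the mean of 5 mice. Folr2 is drawn here from counts summed over both strands (mean 4.13 RPKM in vehicle and 9.66 at 30 μg/kg), not from the unstranded counts. Marco moved from 1.29 to 52.6 RPKM, while Timd4 moved from 1.96 to 3.69 RPKM.

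None of the 8 genes changed at 0.03, 0.1 or 0.3 μg/kg by the quasi-likelihood test of edgeR (Benjamini-Hochberg adjusted), where 0.0195%, 0.0846% and 0.403% of all tested genes rose. The unadjusted p was under 0.05 for 1 member, Spic at 0.1 μg/kg, and DESeq2 called none at these doses. Over those 3 doses the members' log2 fold changes lay between -0.50, for Marco at 0.3 μg/kg, and 0.88, for Spic at 0.1 μg/kg. At 1 μg/kg Cd5l and Spic rose, 2 of 8 members against 2.15% of all genes. At 3 μg/kg Clec4f and Marco joined them, 4 of 8 against 4.53%, and at 10 μg/kg Vsig4, 5 of 8 against 13.6%. At 30 μg/kg 6 of 8 rose with the addition of Timd4, against 23.2% of all genes. No member fell at any dose, and Folr2 and Id3 were not called at any dose in this count column. The median log2 fold change of the 8 genes was 0.60, 0.68, 1.08 and 1.68 at 1, 3, 10 and 30 μg/kg, and the median of all tested genes was 0.03 or less at each of these doses. All dose comparisons share the same 5 vehicle mice. Without overlap between the treated and the vehicle mice were 3 members at 1 μg/kg and the same 3 at 3 μg/kg (Clec4f, Cd5l and Spic, against 4.33% and 5.23% of all genes), 5 at 10 μg/kg (with Vsig4 and Marco, against 12.9%) and 4 at 30 μg/kg (Vsig4, Marco, Cd5l and Spic, against 19.7%). An upward trend over the ordered doses had an adjusted p under 0.05 in 7 of 8 members, Id3 being the exception, and in 31.5% of all genes. The order in which genes were first called describes each gene against vehicle; a difference in onset between genes was not tested as such.

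**Figure D2:**
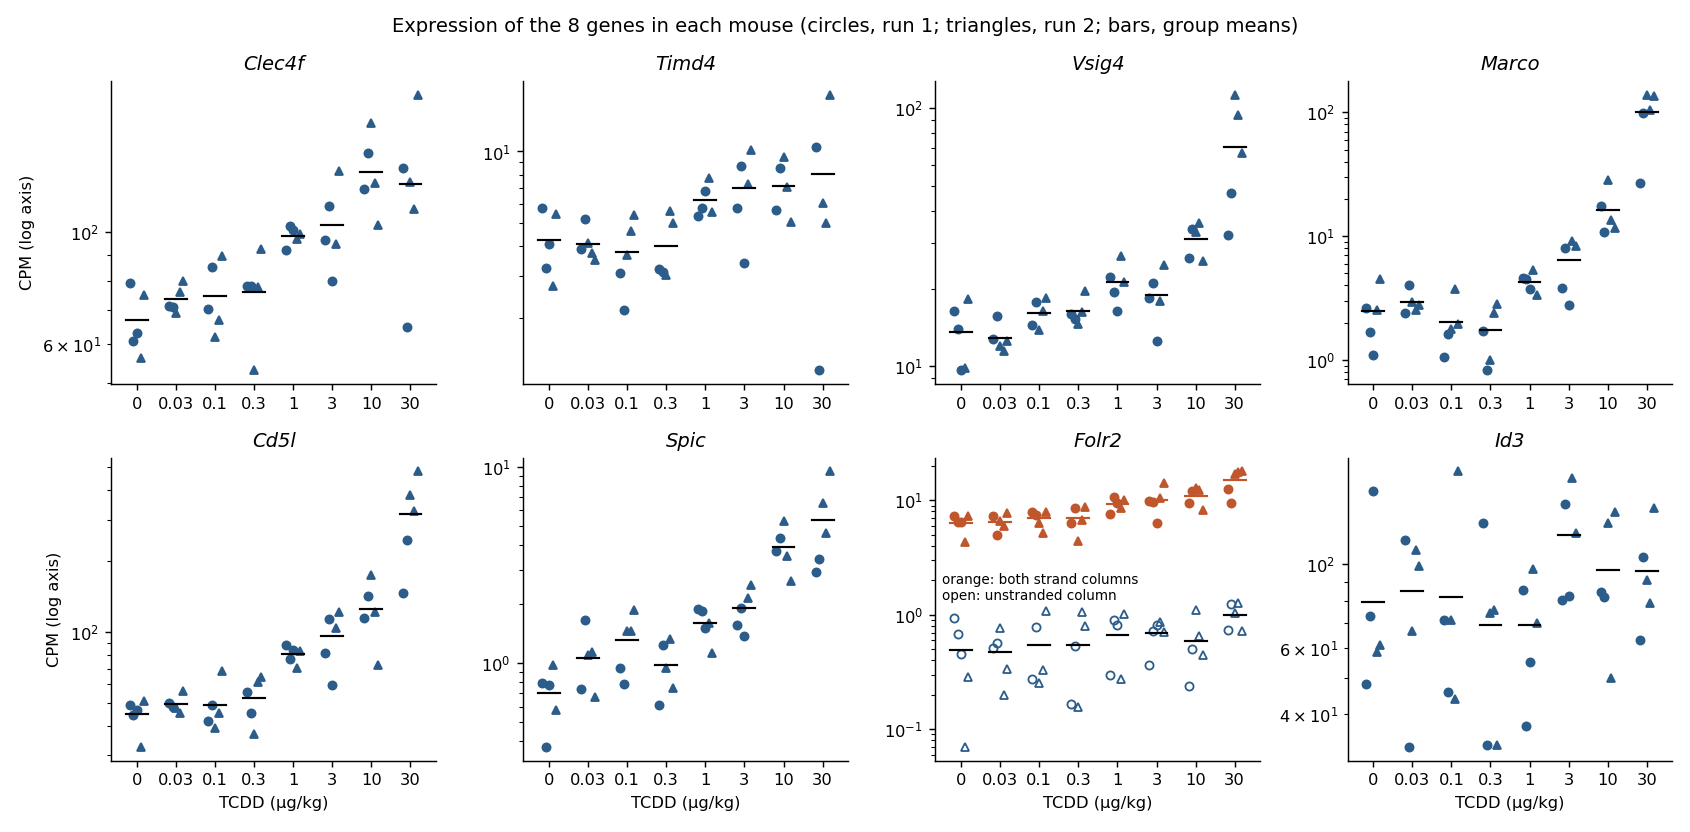
CPM of each of the 8 members in each of the 40 mice on log axes, by TCDD dose in μg/kg, with points for mice and bars for group means. Folr2 is drawn from the unstranded counts and also from counts summed over both strands. Marco at 30 μg/kg ranged from 26.7 to 139 CPM above vehicle mice at 1.10 to 4.51 CPM, while Id3 overlapped with vehicle at every dose.

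Cd5l encodes a secreted protein of tissue macrophages, also named AIM, that binds lipid and protects macrophages from cell death. Vehicle mice had 49.0, 44.5, 46.7, 32.5 and 51.0 CPM, and mice at 1 μg/kg had 88.0, 76.8, 84.2, 70.7 and 83.2 CPM. The 2 groups did not overlap. The log2 fold change was 0.85 (SE 0.22, edgeR quasi-likelihood adjusted p = 0.0201), and it reached 1.48 at 10 μg/kg (2.80-fold, SE 0.22, adjusted p = 2.21e-06). At 30 μg/kg the 5 mice had 146, 247, 381, 325 and 480.3 CPM, all above the vehicle mean of 44.7 ± 7.24 and its highest mouse (7.06-fold, adjusted p = 7.69e-13). The call at 1 μg/kg was lost in 2 of the 10 fits that each omitted a mouse.

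Spic encodes an ETS-family transcription factor induced by heme and needed for iron-recycling macrophages of the spleen. Its level was low, with 6 to 16 counts per vehicle library (0.796, 0.373, 0.777, 0.979 and 0.573 CPM). Mice at 1 μg/kg had 1.90, 1.85, 1.51, 1.60 and 1.13 CPM, all above every vehicle mouse, a 2.27-fold rise (log2 fold change 1.18, SE 0.33, edgeR adjusted p = 0.0307). That call held in 4 of 10 fits without a mouse. At 10 μg/kg the values were 3.74, 4.34, 5.32, 3.53 and 2.61 CPM (5.54-fold, adjusted p = 1.27e-07), and at 30 μg/kg 2.92, 3.41, 6.56, 4.60 and 9.49 CPM (7.65-fold, adjusted p = 5.42e-10). Mice at both doses lay above all vehicle mice, and the ranges of the 2 doses overlapped. Between 10 and 30 μg/kg the log2 difference was 0.46 (SE 0.28, adjusted p = 0.211).

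Marco, a class A scavenger receptor that takes up bacteria and particles, made the largest change of the 8. Vehicle mice had 2.64, 1.68, 1.10, 2.52 and 4.51 CPM. At 3 μg/kg the mice had 3.81, 8.00, 2.76, 9.20 and 8.32 CPM, 2 of them within the vehicle range (2.59-fold, log2 fold change 1.38, SE 0.39, edgeR adjusted p = 0.0181), and this call held in 6 of 10 fits without a mouse. At 10 μg/kg Marco stood at 17.6, 10.9, 28.2, 13.6 and 11.7 CPM, all above vehicle (6.61-fold, adjusted p = 7.43e-07). Mice at 30 μg/kg had 26.7, 99.5, 139, 105 and 137 CPM, of which replicate 1 lay within the range of the dose below and the other 4 above it. The rise over vehicle was 40.8-fold (log2 fold change 5.35, SE 0.41, adjusted p = 1.16e-13).

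Vsig4, the complement receptor CRIg that binds C3 fragments on circulating bacteria, was called from 10 μg/kg. Vehicle mice had 16.4, 14.0, 9.64, 9.86 and 18.3 CPM. Mice at 1 μg/kg had 22.1, 19.4, 16.3, 26.7 and 21.3 CPM, 4 of them above every vehicle mouse (log2 fold change 0.63, edgeR adjusted p = 0.103), and with vehicle and this dose fitted alone the call was made (adjusted p = 0.0459). Mice at 3 μg/kg had 18.3, 20.9, 12.5, 17.9 and 24.8 CPM, overlapping with vehicle (0.47, adjusted p = 0.189). At 10 μg/kg the values were 26.3, 34.0, 33.0, 36.0 and 25.6 CPM, all above vehicle (2.27-fold, SE 0.22 on the log2 scale, adjusted p = 4.83e-05). Those at 30 μg/kg were 32.3, 47.1, 113, 93.9 and 67.2 CPM, with replicate 1 again in the range of the dose below (5.18-fold, adjusted p = 1.64e-11).

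Clec4f, a C-type lectin that binds galactose-bearing glycans and in mouse is made almost entirely by Kupffer cells, rose by less than 2-fold, with no called difference between 10 and 30 μg/kg. Vehicle mice had 79.2, 60.8, 62.8, 56.2 and 75.1 CPM. Mice at 1 μg/kg had 92.1, 103, 101, 96.8 and 99.0 CPM, a narrow group wholly above vehicle, although the log2 fold change of 0.56 (SE 0.17) had an edgeR adjusted p of 0.0563. Clec4f was called at 3 μg/kg (0.63, SE 0.17, adjusted p = 0.0125), in 8 of 10 fits without a mouse. The mice at 10 μg/kg had 122, 143, 164, 125 and 103 CPM (1.97-fold, adjusted p = 2.25e-05). Those at 30 μg/kg had 134, 64.6, 126, 111 and 187 CPM (1.86-fold, adjusted p = 2.58e-05), with replicate 2 inside the vehicle range and the other 4 above it. The coefficient of variation between mice was 4.20% at 1 μg/kg and 35.5% at 30 μg/kg.

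Timd4, the receptor TIM-4 that binds phosphatidylserine on dying cells and marks long-lived resident macrophages, was called at 30 μg/kg alone. Vehicle mice had 5.77, 3.23, 4.08, 2.73 and 5.44 CPM, and mice at 10 μg/kg had 5.66, 8.49, 9.43, 7.06 and 5.06 CPM (log2 fold change 0.74, SE 0.36, edgeR adjusted p = 0.114). Mice at 30 μg/kg had 10.5, 1.21, 6.10, 5.00 and 17.3 CPM. Replicate 2 lay below every vehicle mouse, replicate 4 within the vehicle range and the other 3 above it, so that the highest mouse had 14.3 times the level of the lowest. The rise was 1.88-fold (log2 fold change 0.91, SE 0.36, adjusted p = 0.0307). It was lost in 5 of 10 fits without a mouse, over which the log2 fold change ran from 0.39, without replicate 5 at 30 μg/kg, to 1.17.

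Id3, an inhibitor of basic helix-loop-helix transcription factors that Kupffer cells need for their development, did not pass the test at any dose. Vehicle mice had 48.0, 73.0, 157, 58.7 and 61.1 CPM, with replicate 3 apart from the other 4, and mice at 30 μg/kg had 62.9, 105, 91.2, 79.0 and 141 CPM. The groups overlapped, and the log2 fold change was 0.27 (SE 0.39, edgeR adjusted p = 0.579). Omitting 1 mouse moved it between 0.063, without replicate 5 at 30 μg/kg, and 0.67, without vehicle replicate 3, and no such fit passed the test. Id3 is also made by other liver cells, which these data do not separate.

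Folr2, a folate receptor of tissue-resident macrophages, could not be read from the unstranded counts. Of its 1546 exon bases, 975 (63.1%) also belong to Gm10602, annotated on the opposite strand, and reads in both genes were set aside as ambiguous. The unstranded column held 460 Folr2 counts over all 40 libraries, against 7309 in the sum of both strand columns, while the other 7 members have no overlapping gene and had equal totals either way. In unstranded counts Folr2 had 19, 11, 7, 1 and 4 counts in vehicle mice and 16, 30, 27, 32 and 17 at 30 μg/kg (log2 fold change 0.99, SE 0.51, edgeR adjusted p = 0.0940). With both strand columns summed, a choice made after the loss was seen, vehicle mice had 7.35, 6.48, 6.50, 4.30 and 7.29 CPM and mice at 30 μg/kg 12.5, 9.54, 17.1, 17.6 and 17.9 CPM, all above vehicle. In that fit the log2 fold change was 0.54 at 1 μg/kg (adjusted p = 0.136), 0.66 at 3 μg/kg (adjusted p = 0.0253), 0.78 at 10 μg/kg (adjusted p = 0.00195) and 1.22 at 30 μg/kg (2.33-fold, adjusted p = 1.57e-06). Counted this way Folr2 was called from 3 μg/kg. Members called were then 2, 5, 6 and 7 of 8 at 1, 3, 10 and 30 μg/kg, against 2.02%, 4.26%, 13.4% and 23% of 16853 genes. Because the libraries keep no strand, reads of Folr2 and Gm10602 cannot be told apart in the shared bases.

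**Figure D3:**
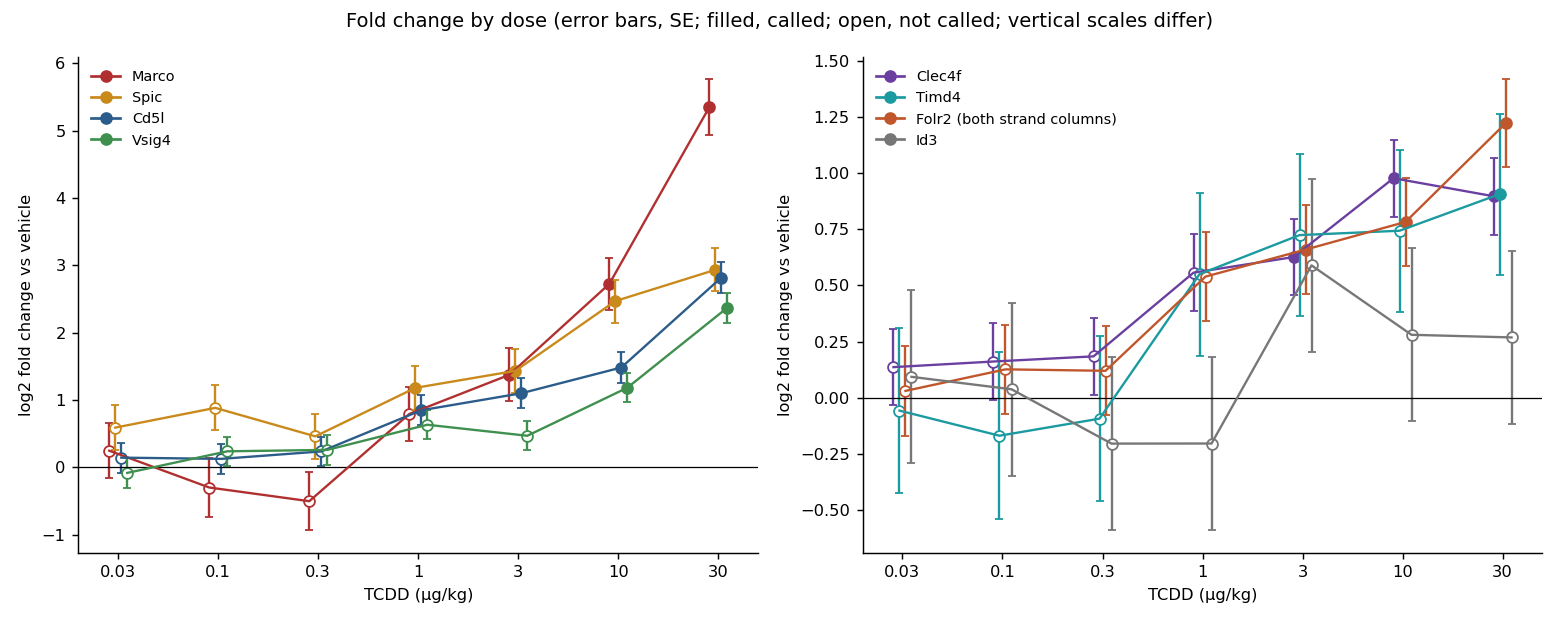
Log2 fold change over vehicle of each member against TCDD dose in μg/kg, with bars for the SE of the fit. Folr2 is drawn from the sum of both strand columns and the other members from the unstranded counts. The members lie within -0.50 and 0.88 up to 0.3 μg/kg and range from 0.27 for Id3 to 5.35 for Marco at 30 μg/kg.

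Comparisons of neighbouring doses gave calls for some genes and not for others. Their differences leave out the vehicle mice, but those mice share in the fit that gave the SE and p. Between 1 and 3 μg/kg none of the 8 members was called by the quasi-likelihood test of edgeR, where 0.0585% of all genes rose, and the unadjusted p was under 0.05 for 1 of them, Id3 (log2 difference 0.79, adjusted p = 0.892), and DESeq2 called none. Between 3 and 10 μg/kg Marco (log2 difference 1.35, adjusted p = 0.0108), Spic (1.04, adjusted p = 0.0179) and Vsig4 (0.71, adjusted p = 0.0280) rose, 3 of 8 against 4.43%. Without replicate 3 at 10 μg/kg none of these 3 calls was kept. Between 10 and 30 μg/kg Marco rose by a further 2.63 (SE 0.35, adjusted p = 3.34e-07), Cd5l by 1.34 (SE 0.22, adjusted p = 1.13e-05) and Vsig4 by 1.19 (SE 0.21, adjusted p = 3.29e-05), 3 of 8 against 10.6%. Over the same step Clec4f differed by -0.08 (SE 0.17, adjusted p = 0.764) and Timd4 by 0.16 (SE 0.35, adjusted p = 0.769), and neither difference passed the test. The sign for Clec4f depended on scaling, since it was 0.16 with libraries scaled to their total counts.

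Whether members parted from each other was tested on their log2 ratio within each liver, which compares genes measured in the same library and does not depend on the library's scaling. Each of the 28 pairs was compared with vehicle by an exact 2-sided permutation test, whose smallest possible p with 5 mice in each group is 0.00794. At 10 μg/kg 9 of 28 ratios differed after adjustment over the 28, and at 30 μg/kg 16 of 28. Without Folr2 these counts were 8 and 14 of 21 pairs. The share of pairs among all genes that differed was not computed, so the counts are not set against a background. The ratio of Clec4f to Cd5l was 0.69, 0.45, 0.43, 0.79 and 0.56 on the log2 scale in vehicle mice, 0.09, 0.01, -0.09, 0.04 and 0.52 at 10 μg/kg and -0.12, -1.93, -1.60, -1.55 and -1.36 at 30 μg/kg. Clec4f was the higher of the pair in CPM in every vehicle mouse and the lower in every mouse at 30 μg/kg. The ratio fell by 1.90 at 30 μg/kg (exact permutation p = 0.00794, adjusted p = 0.0171), whereas the difference of -0.47 at 10 μg/kg did not pass adjustment (exact permutation p = 0.0238, adjusted p = 0.0556).

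Timd4 also fell behind Cd5l. Its log2 ratio to Cd5l averaged -3.40 in vehicle mice and fell by 0.69 at 10 μg/kg (exact permutation p = 0.00794, adjusted p = 0.0247). At 30 μg/kg the 5 ratios were -3.79, -7.55, -5.94, -5.99 and -4.79, all below the lowest vehicle ratio of -3.74, and the mean fell by 2.21 (exact permutation p = 0.00794, adjusted p = 0.0171). Clec4f and Timd4 did not separate from each other, with a change in their log2 ratio of 0.22 at 10 μg/kg (exact permutation p = 0.135) and 0.32 at 30 μg/kg (exact permutation p = 0.524), where 3 mice lay above and 2 below every vehicle mouse. This does not show that the pair changed alike, since Timd4 varied widely between mice. Relative to Clec4f at 30 μg/kg, Vsig4 was higher by 1.44 on the log2 scale (exact permutation p = 0.0159, adjusted p = 0.0278), Spic by 1.86 and Marco by 4.40 (adjusted p = 0.0171 for both, exact permutation).

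Marco also left the genes that rose with it. Its log2 ratio to Cd5l rose by 2.50, to Vsig4 by 2.95 and to Spic by 2.54 at 30 μg/kg, each with all 5 mice on one side of vehicle (exact permutation adjusted p = 0.0171 for each). The ratio of Cd5l to Spic changed by 0.04, less than the spread between mice (exact permutation p = 0.937), and the ratio of Vsig4 to Cd5l changed by -0.45 without passing the test (exact permutation p = 0.0794, adjusted p = 0.111). Id3 fell behind Vsig4, Cd5l, Spic and Marco at 30 μg/kg by 1.92, 2.37, 2.33 and 4.87 on the log2 scale (exact permutation adjusted p = 0.0171 for each), and the ratio of Clec4f to Id3 changed by 0.48 (adjusted p = 0.424, exact permutation).

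**Figure D4:**
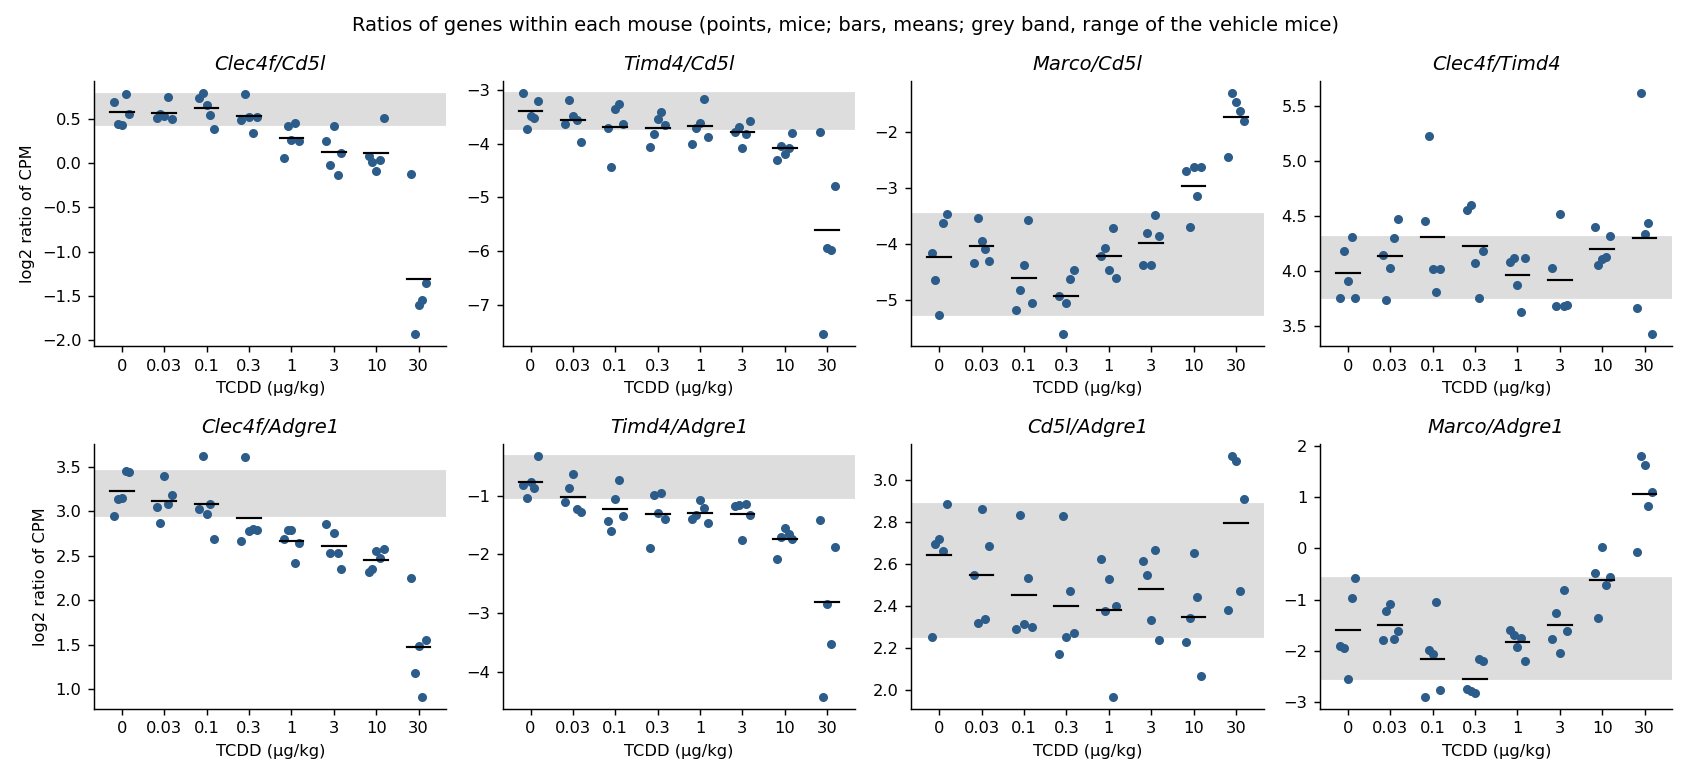
Log2 ratios of genes within each liver in vehicle mice and at every TCDD dose, with points for mice and bars for the mean of 5 mice. Some panels show member pairs and others a member over the general macrophage marker Adgre1. The ratio of Clec4f to Cd5l lies between 0.43 and 0.79 in vehicle mice and between -1.93 and -0.12 at 30 μg/kg.

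The order of single mice differed between genes at 30 μg/kg. Clec4f and Timd4 ranked the 5 mice in the same order, from replicate 5 down through 1, 3 and 4 to replicate 2. Cd5l and Spic shared another order, 5, 3, 4, 2 and 1, while Marco and Vsig4 were highest in replicate 3. Replicate 1 was therefore the lowest of its group for Marco, Vsig4, Cd5l and Spic and the second highest for Clec4f and Timd4. Replicate 2 was the lowest for Clec4f and Timd4. It was also the lowest for Folr2 with both strand columns summed, at 9.54 CPM, whereas in unstranded counts replicate 5 was. At 10 μg/kg Clec4f, Timd4 and Cd5l ranked the mice alike. These are descriptions of 5 livers.

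Most general macrophage markers rose as well, so the members were also set against Adgre1, which encodes F4/80, and Csf1r, the receptor that macrophages need to survive. Adgre1 stood at 7.16 ± 1.87 CPM in vehicle livers, 23.9 ± 4.45 at 10 μg/kg and 44.7 ± 16.6 at 30 μg/kg. The log2 ratio to Adgre1 at 30 μg/kg fell by 1.74 for Clec4f, 2.06 for Timd4 and 2.22 for Id3 and rose by 2.65 for Marco (exact permutation adjusted p = 0.0181 for each, over 16 tests at that dose). It changed by -0.30 for Vsig4, 0.15 for Cd5l and 0.11 for Spic, none of which passed the test (exact permutation adjusted p = 0.381, 0.508 and 0.778). At 10 μg/kg Clec4f had already fallen behind Adgre1 by 0.77 and Timd4 by 0.99, in all 5 mice (exact permutation adjusted p = 0.0282 for both). With Csf1r as the reference the ratio fell by 1.36 for Clec4f, 1.68 for Timd4 and 1.84 for Id3 at 30 μg/kg and rose by 3.03 for Marco. The adjusted p was 0.0282 for Timd4 and 0.0181 for the others by exact permutation. At 30 μg/kg the ratio to Csf1r changed by 0.53 for Cd5l, with 4 mice above every vehicle mouse (exact permutation adjusted p = 0.0508). It changed by 0.49 for Spic and 0.079 for Vsig4 (exact permutation adjusted p = 0.148 and 0.778). None of these passed the test. At 10 μg/kg 5 of 8 ratios to Csf1r differed, 2 of them higher. Those were Spic by 0.70 and Marco by 1.09 (exact permutation adjusted p = 0.0282 for both). At 10 and 30 μg/kg the mean CPM of Clec4f and of Timd4 was not below that of vehicle, and what fell was their level relative to Adgre1 and Csf1r. CPM is itself relative to the scaled library size.

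The genes whose log2 CPM followed each member most closely over the 40 libraries also differed. Cd5l was followed by Axl, C1qb and C1qc (Pearson r = 0.97 for each) and Marco by Cd44, Ctss and Lyz2 (0.97, 0.96 and 0.96). Vsig4 was followed by C3ar1, Msn and Slc11a1 (0.95, 0.95 and 0.94), and Spic by Hip1, Trpv2 and Csf1r (0.91, 0.90 and 0.90). Clec4f was nearest to Itgal, Pld4 and Sdc3 (0.89, 0.88 and 0.87) and Timd4 to Adgre4, Itgal and Gbp2b (0.73, 0.73 and 0.72). Among the members, r was 0.80 for Clec4f and Timd4, 0.94 for Marco and Cd5l, and 0.41 for Timd4 and Marco. For Id3 the nearest genes, Lmnb2, Cybc1 and Gata4, reached 0.66 each, and for unstranded Folr2, Tnfrsf26, Map2k3os and Sp110 reached 0.71, 0.61 and 0.61. The 40 points share dose, vehicle mice and depth, so these values describe likeness only.

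Lists of genes with related roles gave the setting, with calls at 30 μg/kg to be read against 23.2% of all genes higher and 18.9% lower. Of 15 other Kupffer cell genes 10 rose, 2 fell and 3 were not called. The largest rise was that of Hmox1, the heme-degrading enzyme, from 15.0 ± 1.5 to 215 ± 107 CPM (log2 fold change 3.84, edgeR adjusted p = 1.26e-13). C6, a complement component that hepatocytes also make, fell from 134 ± 48.3 to 19.1 ± 7.01 CPM, by 2.81 on the log2 scale, and Nr1h3, which encodes LXRα and is also made by hepatocytes, fell by 0.78. Of 15 niche signals and receptors that maintain Kupffer cells 8 rose, Csf1r most (2.23), and 1 fell, Notch2 (by 0.91).

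Among the 10 genes of heme handling and the Spic axis 6 rose and none fell, Hmox1 again with the largest rise. Of 9 measured apoptotic cell receptors and bridging proteins, the group of Timd4, 5 rose and 1 fell. Mfge8, which bridges dying cells to phagocytes, rose from 11.2 ± 1.16 to 273 ± 81.4 CPM (log2 fold change 4.60), and Pros1, a ligand of the receptor MERTK, fell by 0.63. Of 8 scavenger receptors 6 rose, Marco most, and 2 fell, Scarb1 (by 1.26) and Colec12 (by 1.27). Of 9 complement components and receptors 8 rose, C5ar1 most (5.06), and 1 was not called. In the Id family Id4 and Id1 rose (2.75 and 1.87), while Id2 and Id3 were not called. The lists overlap in part and hold members themselves.

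Markers of other cells moved with these results, and their part in them was not tested. At 30 μg/kg 13 of 14 general macrophage markers rose, Ctss most (3.53), and their summed level was 719 to 1869 CPM against 207 to 273 in vehicle mice. All 8 monocyte markers rose, Chil3 most, from 0.12 ± 0.14 to 5.46 ± 3.39 CPM, with sums of 23.2 to 56.8 against 5.04 to 9.10 CPM. Of 8 markers of lipid-associated macrophages 7 rose, Gpnmb most, from 0.27 ± 0.38 to 308 ± 150 CPM, with sums of 285 to 1177 against 84.1 to 128 CPM. At 1 μg/kg, where 2.15% of all genes rose, 10 of 14 general macrophage markers, 0 of 8 monocyte markers and 1 of 8 lipid-associated markers were called higher by edgeR, with median log2 fold changes of 0.76, 0.53 and 0.02. DESeq2 called 10 general macrophage, 0 monocyte and 2 lipid-associated markers higher at that dose. The lipid-associated marker called by edgeR was Lpl, which was called from 0.3 μg/kg. Monocyte markers were low in vehicle mice, so a small rise in them could be missed. A difference in onset between the lists was not tested.

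Hepatocyte markers summed to 29340 to 61859 CPM at 30 μg/kg against 99907 to 123770 CPM in vehicle mice, with 5 of 6 lower and Apoa1 falling most, from 7412 ± 878 to 809 ± 492 CPM. Of 6 sinusoidal endothelial markers 4 rose, Pecam1 most (1.35), with sums of 218 to 294 against 133 to 187 CPM. Of 6 stellate cell markers 3 rose, Reln most (2.73), with sums of 396 to 773 against 186 to 259 CPM. All 6 markers of cycling cells rose, Ccnb1 most (4.90), with sums of 54.6 to 82.8 against 4.37 to 6.53 CPM. Of 4 cholangiocyte markers 3 rose, Epcam most (2.83), and Sox9 fell by 0.95, with sums of 15.9 to 95.8 against 14.4 to 19.3 CPM. Markers of T cells (3 of 4 rose, Cd8a most), neutrophils (3 of 3 measured, S100a9 most) and dendritic cells (1 of 4, Flt3) summed to 1.79 to 5.64, 7.22 to 28.6 and 6.59 to 10.6 CPM at 30 μg/kg. The corresponding vehicle sums were 0.68 to 1.74, 0 to 1.29 and 6.73 to 10.1 CPM. No listed marker was at 0 in every mouse at 30 μg/kg.

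The numbers in the sample titles pass through the dose order 2 times, and each pass is called a run here. No label says that a run was a batch, and every group has mice of both runs. Within run 1 and run 2 the log2 ratio of Clec4f to Cd5l at 30 μg/kg changed by -1.55 and -2.17, that of Timd4 to Cd5l by -2.24 and -2.21, that of Marco to Cd5l by 2.81 and 1.91, that of Clec4f to Adgre1 by -1.36 and -2.12 and that of Timd4 to Adgre1 by -2.05 and -2.16. The rise of Clec4f over vehicle at 30 μg/kg was 0.54 in run 1 alone (edgeR adjusted p = 0.0703) and 1.08 in run 2 alone, and that of Timd4 was 0.39 (adjusted p = 0.628) and 1.18 (adjusted p = 0.0459).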

How the data were processed

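Whole liver RNA of 40 mice was sequenced as paired-end reads. The authors deposited raw counts per gene and library as written by the aligner, with an unstranded column and a column for each strand. The submitters' processing notes name FastQC 0.11.7, Trimmomatic 0.39, STAR 2.7.3a and the builds GRCm39 and mm10, without saying which build served which step. The authors also deposited a log2 table of 23120 genes, which equals DESeq2's blind variance-stabilizing transformation of the counts within 5.03e-10 and was used for an alternative only. Reads on the first strand made up 50.0% to 50.3% per library, so the unstranded column was used. Reads in genes were 71.3% to 80.8% of a library and ambiguous reads 4.84% to 5.90%; rows that name no gene were left out.

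Groups came from the dose given for each sample. Gene names, coordinates and exon lengths came from GENCODE M21, which named 52083 of 55359 identifiers, and promoters from a RefSeq table of GRCm38.p6. Counts were tested in R 4.3.3 with edgeR 4.0.16: filterByExpr (minimum count 10, minimum total 15), TMM scaling, 1 mean per dose over all 40 libraries without covariates, the quasi-likelihood test and Benjamini-Hochberg adjustment over 15373 genes within each contrast. The study itself called genes by a fold threshold with a posterior probability. Calls needed an adjusted p under 0.05 and 1.5-fold. CPM used TMM-scaled libraries, and log2 CPM a prior count of 2. Ratios were compared by exact 2-sided permutation tests. The scripts were tested on simulated data.

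Alternatives were DESeq2 1.42.0, other scalings, filters and sample sets, a strand column, limma 3.58.1 on the log2 table as deposited and the omission of each library. The sum of both strand columns was added after the data were seen. The rule names the 8 genes by symbol and uses no measured value, but the genes, the lists and the tests were chosen with earlier results of these data known, so the choice is not independent of the data. Named besides the 8 were, per list, the genes with the largest rise and fall and those against the list's main direction at 30 μg/kg, and for each member the 3 genes most correlated with it; Adgre1 and Csf1r served as references. Replicates are separate mice. Counts carry no molecular identifiers, and the SE of the fits includes the spread between mice as well as counting error. The result of 1 list of cell type markers is not reported here.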

Additional observations from a re-analysis of the deposited data

Results flagged for a closer look

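Of 64 groups of 5 mice (8 members at 8 doses) 2 held a mouse far from the other 4 by Dixon's test, which chance alone gives in about 1 of 20 groups. Both concerned Id3. Replicate 5 at 0.1 μg/kg had 176.7 CPM while the other 4 mice of its group had 43.9 to 71.2 CPM. Vehicle replicate 3 had 157.2 CPM while the other 4 vehicle mice had 48.0 to 73.0 CPM. The second value enters every comparison of Id3 with vehicle.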

How the results depend on the processing

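No paired analysis was possible because the labels number no replicates, so a number only names a mouse. The alternatives other than single omissions left 722 gene or ratio values unchanged. Another 30 lost the threshold, 13 passed it, 22 changed sign and 4 ratios of Folr2 moved within a run. Unchanged meant the same side of the threshold and the same direction, except for ratios within a run, which were not tested. Those ratios counted as unchanged where they moved by less than the larger SD between mice, some of them with a change of sign. Depth limits Spic and unstranded Folr2, which rest on few counts per library, and Folr2 also loses reads to an overlapping gene.

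The count of members called at 1 μg/kg was 1 rather than 2 without a filter, with a mean of at least 50 counts, with the strand-specific column and with limma, and 0 in either title run alone. At 3 μg/kg it was 1 rather than 4 in either run alone. Between 3 and 10 μg/kg it was 0 rather than 3 in either run alone, and between 10 and 30 μg/kg it was 1 rather than 3 in run 1 alone. Each run holds fewer mice, and calls over all genes dropped as well. Genes called higher at 1 μg/kg were 136 in run 1 alone and 67 in run 2 alone, against 330 with both. The numbers were 255 and 290 against 697 at 3 μg/kg, and 111 and 207 against 681 between 3 and 10 μg/kg. Between 10 and 30 μg/kg they were 151 in run 1 alone against 1626. Omitting single libraries gave 0 to 3 calls at 1 μg/kg, 2 to 4 at 3 μg/kg, 5 at 10 μg/kg, 5 to 7 at 30 μg/kg, 0 to 3 between 3 and 10 μg/kg and 3 between 10 and 30 μg/kg. Calls between 3 and 10 μg/kg fell to 0 without replicate 3 at 10 μg/kg and to 1 without replicate 1 or replicate 3 at 3 μg/kg. Of the 16 ratios to Adgre1 and Csf1r, 0 to 12 then differed at 10 μg/kg and 7 to 10 at 30 μg/kg, and of the 28 pairs 9 to 13 and 13 to 16. With 4 mice against 5 the exact test cannot go below 0.0159.

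Scaling to total counts moved the median log2 fold change of all genes at 30 μg/kg to 0.52 and the calls to 6402 higher of 7961, against 3567 of 6476. Clec4f then stood at 1.37, Timd4 at 1.35, Id3 at 0.76 and Marco at 5.87, and relative to that median these genes keep the directions given above.

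Signs turned for values that had not passed the test, and the cause was not tested. In run 1 alone Folr2 stood at -0.067, -0.16 and -0.90 at 1, 3 and 10 μg/kg and Id3 at -0.17 and -0.16 at 10 and 30 μg/kg, and in run 2 alone Id3 stood at 0.48 at 1 μg/kg. Between 3 and 10 μg/kg Timd4 stood at -0.015 with run as a covariate and -0.29 in run 2 alone, and Folr2 at 0.17 with the strand-specific column and 0.12 with both strand columns. Between 10 and 30 μg/kg Clec4f stood at 0.16 with total counts and 0.087 in run 2 alone, Timd4 at -0.29 in run 1 alone and -0.11 with limma, and Spic at -0.35 in run 1 alone. Over the same step Id3 stood at 0.0026 with relative log expression factors and with DESeq2, 0.26 with total counts, 0.024 with a mean of at least 50 counts, 0.015 in run 1 alone and 0.035 with limma. The ratio of Cd5l to Spic at 30 μg/kg changed by -0.10 with a prior count of 0.5 and by -0.14 in run 1 alone. At the same dose the ratio of Vsig4 to Csf1r changed by -0.24 in run 1 alone and that of Spic to Adgre1 by -0.25 in run 2 alone. At 10 μg/kg the ratio of Folr2 to Csf1r changed by 0.0054 in run 2 alone.

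Under single omissions Id3 ranged from -0.36 to 0.20 at 1 μg/kg and Folr2 from -0.13 to 0.62 at 10 μg/kg. Between 3 and 10 μg/kg Timd4 ranged from -0.16 to 0.18. Between 10 and 30 μg/kg Clec4f ranged from -0.29 to 0.067, Timd4 from -0.35 to 0.43 and Id3 from -0.22 to 0.15. At 30 μg/kg the change in ratio ranged from -0.014 to 0.53 for Clec4f to Timd4, -0.19 to 0.21 for Cd5l to Spic, -0.050 to 0.35 for Spic to Adgre1 and -0.11 to 0.20 for Vsig4 to Csf1r.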
